A study of Medicago ruthenica with 3 samples.

Results

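The antenna proteins and photosystem subunits of the photosynthetic light reactions were examined in the degradome of *Medicago ruthenica* leaves, a forage legume known for its drought tolerance. All entries with one of 10 gene symbols were taken, the symbols being CAB21, AB80, CAP10A, LHCB4.1, LHCB4.3 and LHCB5 for antenna proteins and PSAH, PSAN, psaA and PSBW for photosystem subunits. They gave 11 transcripts of 6912 and 23 entries of 11390, an entry being a small RNA listed with a transcript. The antenna proteins had 7 transcripts in 15 entries and the photosystem subunits had 4 transcripts in 8 entries.

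Seedlings 4 weeks old were grown in pots under 3 watering regimes. The rewatered plants (RW) went 15 days without water, were then watered until the soil was saturated, and were sampled 2 days later. The drought plants (DS) went through the same 15 days, at the end of which the relative soil moisture was 20%, and were sampled at that point. The control plants (CK) were watered throughout, with soil moisture kept above 80%, and were sampled on the same day as DS. Each condition had 1 degradome library, and the sources used here do not say whether it pooled plants or biological replicates, so the differences below have no replicate check.

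Photosystem I and photosystem II are the pigment-protein complexes of the thylakoid membrane that turn light into electron flow, and antenna proteins bind chlorophyll a and b around them and pass on the energy they absorb. The major antenna of photosystem II is a trimer, and the minor antenna proteins CP29, CP26 and CP24 join it to the core. Nearly all these proteins are encoded in the nucleus and imported into the chloroplast, whereas psaA is a gene of the chloroplast genome. A degradome library reads the 5′ ends of uncapped, polyadenylated RNA, the form a transcript takes after a microRNA has guided its cleavage and also after other decay. Whether a read of these transcripts came from a cut guided by the small RNA it is listed with was not tested. None of the light-harvesting or photosystem families is among the well-known conserved targets of plant microRNAs.

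The values are RPM, here reads per 1000000 reads of the deposited table and not of the whole library, and each could be turned back into whole reads. The table held 29617 reads in RW, 32719 in DS and 24790 in CK, so that 1 read was worth 33.8 RPM, 30.6 RPM and 40.3 RPM in that order. A count of 0 allows up to 3 reads, which is 101 RPM in RW, 91.7 RPM in DS and 121 RPM in CK. The leaf label was checked with Rubisco activase and the Rubisco small subunit, which had 778 reads in RW, 1713 in DS and 665 in CK over 3 transcripts. No leghemoglobin, cysteine-rich nodulin or floral AGAMOUS, APETALA3 or PISTILLATA transcript was listed. Of the phloem markers, the 4 SEO transcripts held 25 reads in RW, 17 in DS and 242 in CK, and SUC2 held 1, 7 and 3 reads. The part of such a difference between the libraries in the values below was not tested.

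Taken as a whole, the 11 transcripts held 330 reads in RW, 175 in DS and 390 in CK. This was 1.11% of the RW reads (95% exact interval 0.998 to 1.24), 0.535% of the DS reads (0.459 to 0.620) and 1.57% of the CK reads (1.42 to 1.74). The share was thus lowest in the drought library and highest in the control library, and the 3 intervals did not overlap. These and all other intervals cover counting error only, since reads made without molecular identifiers are not independent molecules. In a bulk leaf sample fewer cells with these RNAs and less RNA per cell cannot be told apart, and neither can less cleavage and less transcript, since transcript levels were not used here.

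In the sum over the antenna transcripts there were 239 reads (8070 RPM) in RW, 122 reads (3729 RPM) in DS and 275 reads (11093 RPM) in CK. The DS/CK ratio was 0.336 (95% interval 0.269 to 0.417), RW/DS was 2.16 (1.73 to 2.71) and RW/CK was 0.727 (0.609 to 0.868). The photosystem subunits together had 91 reads (3073 RPM) in RW, 53 reads (1620 RPM) in DS and 115 reads (4639 RPM) in CK, giving 0.349 (0.247 to 0.488) in DS/CK, 1.90 (1.34 to 2.71) in RW/DS and 0.662 (0.497 to 0.880) in RW/CK. Both sums were therefore low in DS, and in RW they lay between DS and CK. Antenna reads per photosystem read numbered 2.63 (2.05 to 3.38) in RW, 2.30 (1.65 to 3.24) in DS and 2.39 (1.92 to 2.999) in CK. Between libraries this quotient had a ratio of 0.963 (0.642 to 1.45) in DS/CK, 1.14 (0.745 to 1.74) in RW/DS and 1.10 (0.784 to 1.54) in RW/CK, so over the full sums a difference between antenna and photosystem was not detectable at this depth.

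Each sum leaned on 1 transcript. Without CAB21 the antenna ratio was 0.443 (0.334 to 0.585) in DS/CK, 2.38 (1.83 to 3.13) in RW/DS and 1.06 (0.842 to 1.32) in RW/CK, so that the antenna sum in RW was no longer below CK once CAB21 was left out. Without PSAH the photosystem subunits had 24 reads in RW, 31 in DS and 35 in CK, and the ratios were 0.671 (0.400 to 1.12) in DS/CK, 0.855 (0.480 to 1.51) in RW/DS and 0.574 (0.327 to 0.993) in RW/CK. The photosystem sum without PSAH was thus not higher in RW than in DS. Its RW/DS interval did not overlap that of the antenna without CAB21, but leaving out these transcripts itself moved the sums apart. PSAH had the highest RW/DS ratio of the photosystem subunits (3.36), and that of CAB21 (1.70) lay below the antenna sum. A difference between the trimmed sums was not tested, and between the full sums none was detectable.

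**Figure D1:**
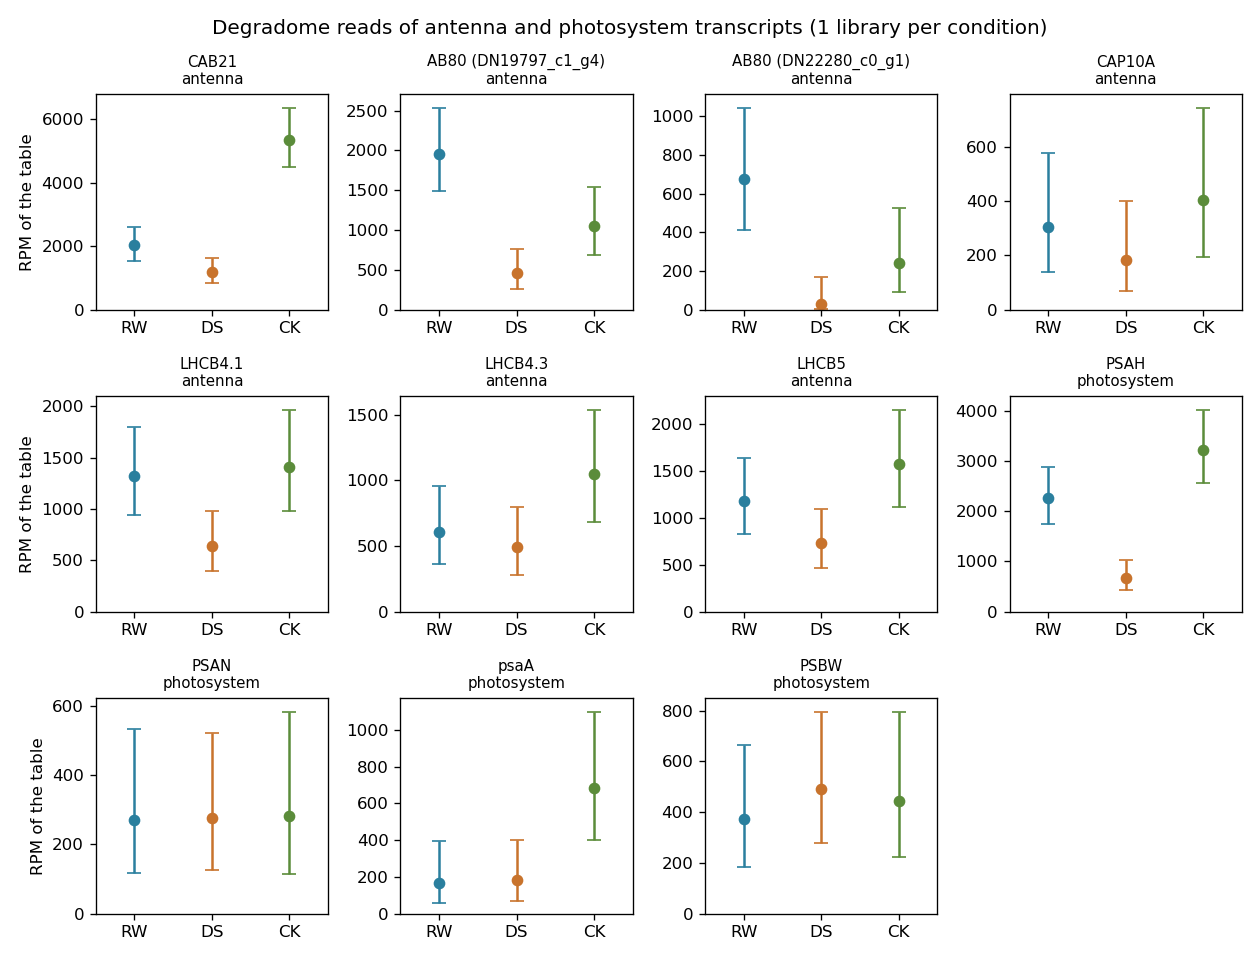
RPM of the deposited table (vertical axis, starting at 0, with its own scale in each panel) of the 11 transcripts in RW, DS and CK, 1 library each, with points for the value and bars for the exact 95% counting interval. CAB21 had 2026 RPM in RW, 1192 RPM in DS and 5365 RPM in CK, whereas PSAN lay between 270.1 and 282 RPM in the 3 libraries.

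A transcript was tested in a comparison when it had at least 10 reads over both libraries. Given its reads in both libraries together, their split was tested two-sidedly against the split of the table totals (exact binomial test), and p-values were adjusted by the Benjamini-Hochberg method over all transcripts tested in that comparison, with a threshold of 0.05. With 1 library per condition such a p compares 2 libraries and not 2 conditions. All 11 transcripts had at least 10 reads over the 3 libraries, and 10 were tested in DS vs CK and 11 in each of the other comparisons.

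The drought library was set against the control library to ask what 15 days without water did. Of 928 transcripts tested, 187 passed (20.2%), 102 of them higher in DS (11.0%) and 85 lower (9.16%). Among the 10 antenna and photosystem transcripts tested, 5 were lower and 0 were higher, namely CAB21, LHCB4.1 and LHCB5 of the antenna and PSAH and psaA of photosystem I. At an unadjusted p under 0.05 there were 7. The ratio was below 1 for 9 of the 10, against 46.4% of all transcripts tested, and the median log2 ratio (with 1 read added to each library) was -1.09, against 0.09 for all.

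Rewatered leaves were set against drought leaves to ask what differed 2 days after rewatering. RW was sampled 2 days later than DS and CK, so rewatering cannot be told apart from the later sampling day and age. In RW vs DS 192 of 1045 transcripts passed (18.4%), 104 higher in RW (9.95%) and 88 lower (8.42%). Of the 11 members, 4 were higher in RW and 0 were lower. They were both AB80 transcripts, LHCB4.1 and PSAH. The median log2 ratio of the members was 0.67, against 0.07 for all transcripts tested. All 7 antenna transcripts had a ratio above 1 (median log2 ratio 0.75), and the 3 members with a ratio below 1 were the photosystem subunits PSAN, psaA and PSBW (median of the 4 photosystem transcripts -0.04).

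Rewatered leaves were last set against the watered control. In this comparison 119 of 893 transcripts passed (13.3%), 63 higher in RW (7.05%) and 56 lower (6.27%). Of the 11 members, 2 were lower in RW, CAB21 and psaA, and 0 were higher. Their median log2 ratio was -0.39, against 0.11 for all transcripts tested. The 3 comparisons share their libraries, so they are not independent of each other.

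**Figure D2:**
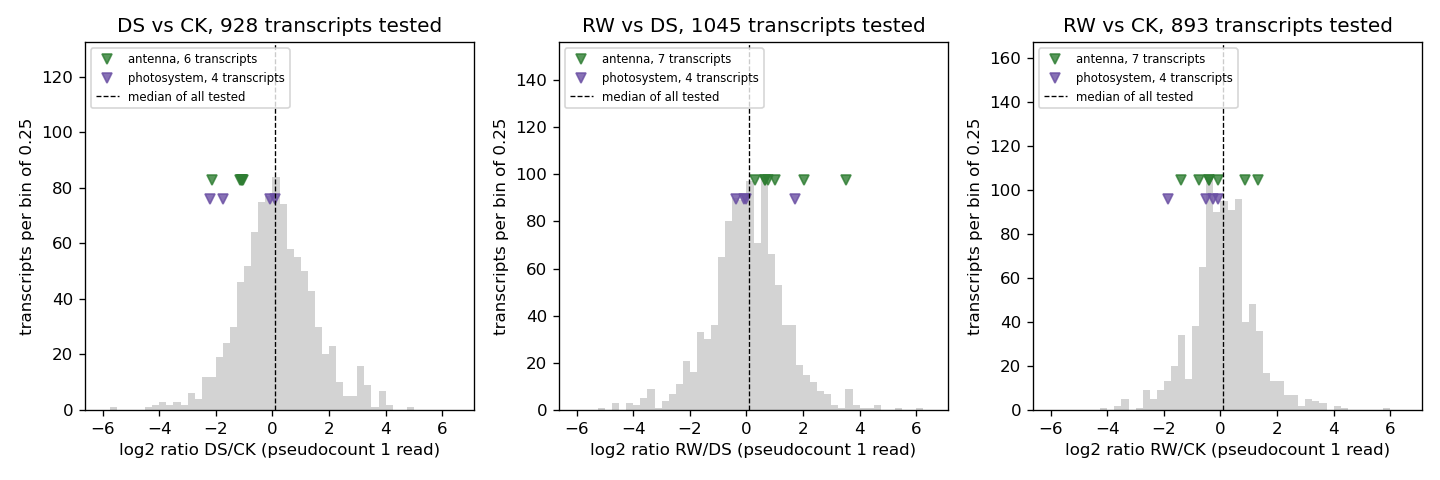
Distribution of the log2 ratio (horizontal axis, 1 read added to each library) over all transcripts tested in each of the 3 comparisons (1 panel each), as grey bars of transcripts per bin, with a triangle for each antenna (green) or photosystem (violet) transcript tested, at an arbitrary height, and a dashed line at the median of all. In DS vs CK the antenna triangles all lie left of the dashed line, between -2.14 and -1.05.

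CAB21 and AB80 are names of the major chlorophyll a/b proteins of photosystem II, first given in tobacco and pea. The CAB21 transcript, TRINITY_DN14255_c0_g4, had 60 reads in RW, 39 in DS and 133 in CK, or 2026, 1192 and 5365 RPM. It was high in the control library and low in both others, with overlapping intervals of the RW and DS levels. CAB21 fell in DS to 0.222 of CK (0.151 to 0.320, adjusted p = 8.6e-18 in the exact binomial test). It was also lower in RW than in CK, at 0.378 (0.274 to 0.516, exact adjusted p = 6.4e-09). Against DS, RW stood at 1.70 (1.12 to 2.61), which did not pass (exact adjusted p = 0.058). Its annotation came from a tobacco relative, *Nicotiana tomentosiformis*, and not from a legume. Over the table, 62 transcripts had an annotation from a plant outside the legumes. Of those tested, 3 of 21 were lower in DS vs CK (CAB21 included). In RW vs DS 5 of 21 were lower (CAB21 not included), and in RW vs CK 6 of 20 (CAB21 included). Among transcripts with a legume annotation the counts were 76 of 880, 80 of 992 and 46 of 844. The part of the transcript's origin in its values was not tested.

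AB80 had a pair of transcripts, both with their highest level in RW. The deeper one, TRINITY_DN19797_c1_g4, had 58 reads in RW, 15 in DS and 26 in CK, or 1958, 458 and 1049 RPM. RW was the high library and DS the low one. AB80 TRINITY_DN19797_c1_g4 rose in RW to 4.27 times DS (2.39 to 8.12, exact adjusted p = 8.5e-07). Its DS/CK ratio of 0.437 (0.215 to 0.857) and its RW/CK ratio of 1.87 (1.16 to 3.09) narrowly missed the threshold, with exact adjusted p of 0.054 and 0.057. The other AB80 transcript, TRINITY_DN22280_c0_g1, had 20 reads in RW, 1 in DS and 6 in CK. It too was high in RW, where it stood at 22.1 times DS (exact adjusted p = 0.00011), but with 1 DS read the interval ran from 3.53 to 916. Its 7 reads in DS and CK were below the minimum for a test of DS vs CK, and RW/CK was 2.79 (1.08 to 8.49, exact adjusted p = 0.14). Reads of similar copies of a gene may have been split between them by the mapping, so their sum is given as well. Both together had 78 reads in RW, 16 in DS and 32 in CK, with ratios of 0.379 (0.194 to 0.711) in DS/CK, 5.39 (3.12 to 9.88) in RW/DS and 2.04 (1.34 to 3.18) in RW/CK.

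The minor antenna proteins were represented by LHCB4.1 (CP29), LHCB5 (CP26) and CAP10A (CP24). LHCB4.1, TRINITY_DN24745_c0_g1, had 39 reads in RW, 21 in DS and 35 in CK, or 1317, 642 and 1412 RPM. RW and CK lay close together and DS lay below both. LHCB4.1 fell in DS to 0.455 of CK (0.251 to 0.803, exact adjusted p = 0.026) and rose in RW to 2.05 times DS (1.18 to 3.67), where the exact adjusted p was 0.05 after rounding and just under the threshold before it. RW/CK was 0.933 (0.576 to 1.52, exact adjusted p = 0.97). LHCB4.1 and PSAH were the only members that passed both in DS vs CK and in RW vs DS. The DS vs CK call of LHCB4.1 was lost with no scaling (exact adjusted p = 0.2) and with mapped reads (0.28), and its RW vs DS call with no scaling (0.11), with median of ratios (0.085) and when at least 5 reads were asked for (0.077).

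LHCB5, TRINITY_DN21475_c0_g1, had 35 reads in RW, 24 in DS and 39 in CK, or 1182, 734 and 1573 RPM. LHCB5 fell in DS to 0.466 of CK (0.268 to 0.795, exact adjusted p = 0.021). RW/DS was 1.61 (0.931 to 2.83, exact adjusted p = 0.24) and RW/CK was 0.751 (0.462 to 1.22, exact adjusted p = 0.56). Its RW level thus lay between the others and was not set apart from either. CAP10A, TRINITY_DN17148_c0_g3, was shallow, with 9 reads in RW, 6 in DS and 10 in CK. No ratio of CAP10A passed, and the interval of DS/CK (0.455, 0.136 to 1.38) held both a deep fall and no change. The 3 minor antenna genes together had 83 reads in RW, 51 in DS and 84 in CK, with ratios of 0.460 (0.318 to 0.659) in DS/CK, 1.80 (1.25 to 2.60) in RW/DS and 0.827 (0.603 to 1.13) in RW/CK.

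LHCB4.3, TRINITY_DN19562_c0_g1, bears the symbol of a CP29 isoform of Arabidopsis, but its annotation in the table is an antenna protein of photosystem I, so its place in the antenna is unsettled. It had 18 reads in RW, 16 in DS and 26 in CK, or 608, 489 and 1049 RPM. The levels of RW and DS were near each other and below that of CK. No ratio passed, with 0.466 (0.234 to 0.903, exact adjusted p = 0.077) in DS/CK, 1.24 (0.598 to 2.61, exact adjusted p = 0.80) in RW/DS and 0.579 (0.299 to 1.10, exact adjusted p = 0.32) in RW/CK.

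Of the photosystem I subunits, PSAH is the small membrane subunit at which the mobile antenna of photosystem II docks during state transitions. PSAH, TRINITY_DN14416_c0_g1, had 67 reads in RW, 22 in DS and 80 in CK, or 2262, 672 and 3227 RPM. DS was the low library, and its interval overlapped neither of the others. PSAH fell in DS to 0.208 of CK (0.124 to 0.337, exact adjusted p = 2.5e-11) and rose in RW to 3.36 times DS (2.05 to 5.72, exact adjusted p = 4.6e-06). RW/CK was 0.701 (0.499 to 0.982) and did not pass (exact adjusted p = 0.17).

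PSAN is a subunit on the lumen side of photosystem I, near the place where plastocyanin hands over electrons. PSAN, TRINITY_DN19839_c0_g2, had 8 reads in RW, 9 in DS and 7 in CK. The 3 levels lay within a few reads of each other, and the DS/CK ratio of 0.974 had a wide interval of 0.323 to 3.08, which overlapped that of PSAH. PSBW, a small subunit that helps hold photosystem II and its antenna together, had 11 reads in RW, 16 in DS and 11 in CK on TRINITY_DN15618_c2_g4. Its ratios were 1.10 (0.480 to 2.63) in DS/CK, 0.760 (0.319 to 1.74) in RW/DS and 0.837 (0.329 to 2.13) in RW/CK. None of the ratios of PSAN or PSBW passed, and PSBW was the member with the highest DS/CK ratio.

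psaA encodes a core protein of photosystem I that carries the reaction centre chlorophyll. The psaA transcript, TRINITY_DN19779_c1_g1, had 5 reads in RW, 6 in DS and 17 in CK, or 169, 183 and 686 RPM. RW and DS were both low and CK was high. psaA fell in DS to 0.267 of CK (0.0863 to 0.711, exact adjusted p = 0.03) and was lower in RW at 0.246 of CK (0.0710 to 0.695, exact adjusted p = 0.038), while RW/DS was 0.921 (0.222 to 3.62, exact adjusted p = 1). Both calls were lost when transcripts with at least 5 reads were tested, with exact adjusted p of 0.054 and 0.066. They were also lost with no scaling (0.11 and 0.097) and with mapped reads (0.14 in each). The DS vs CK call was lost by the deepest entry alone as well (0.075). psaA belongs to the chloroplast genome, whose RNA is mostly not polyadenylated in a stable form, and the libraries were made from polyadenylated RNA.

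**Figure D3:**
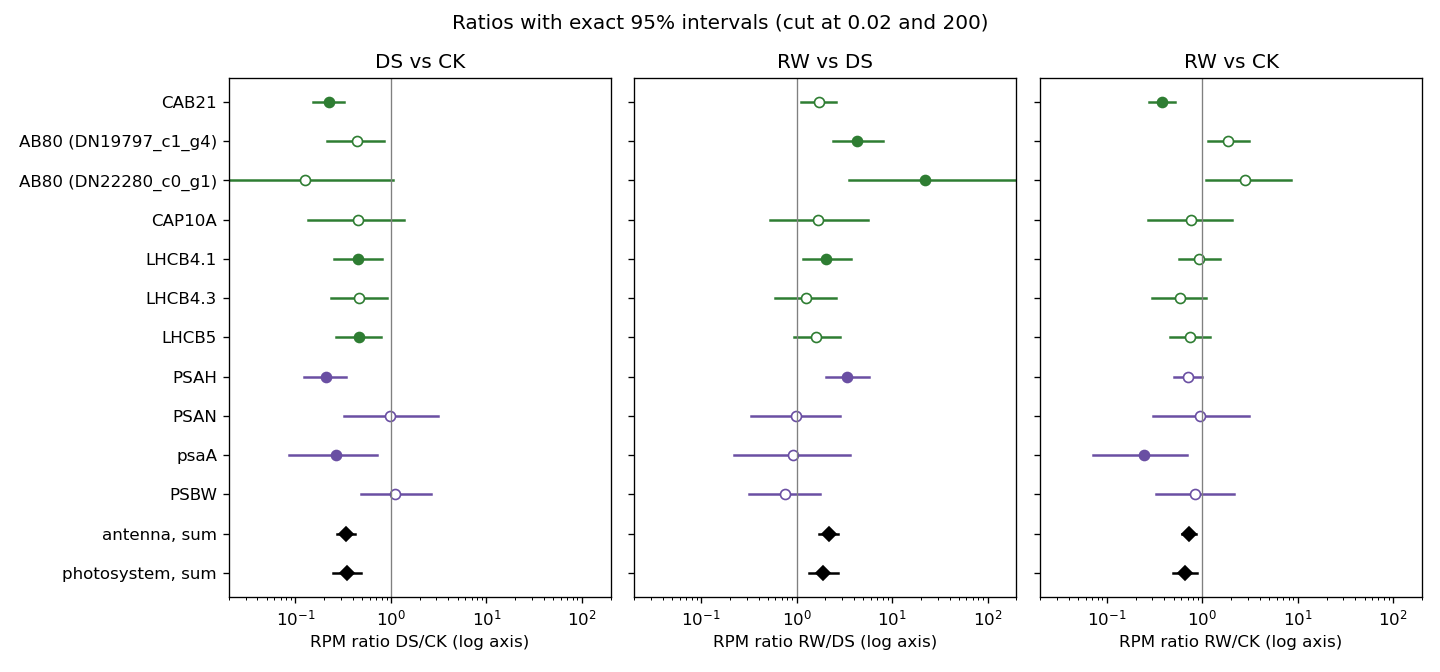
RPM ratios (log axis) of the 11 transcripts and of the antenna and photosystem sums in DS/CK, RW/DS and RW/CK, with bars for the exact 95% interval (cut at the ends of the axis), green for antenna and violet for photosystem. Filled circles passed at an adjusted p under 0.05, open circles did not pass or were not tested, and the sums (black) have no test. In DS/CK 5 circles are filled, all left of 1, and in RW/DS 4 are filled, all right of 1.

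The small RNAs with which the members were listed numbered 22 of the 348 in the table. Of these, 15 had names of a precursor arm (MIR with p3 or p5), 5 had names of a mature miRNA and 2 were named PC, the tag for small RNAs without a match to a known one. By family name, 3 belonged to miR167 and 3 to miR482 or miR2118. A single small RNA, mtr-MIR5282-p3, was listed on 2 members, which were the AB80 pair. Of the member transcripts, 3 had 1 small RNA, 5 had 2, and 3 had 3 or 4. Entries on the same member transcript differed in their reads, as on CAB21 with 36 and 24 in RW, so they did not hold exactly the same reads. No cleavage position was used, so a partial overlap of their reads could not be checked.

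The members' entries were listed in more libraries than most. All 3 libraries listed 16 of the 23 (69.6%), and these held 97.5% of the member reads. Among the 3984 entries of all transcripts with at least 10 reads the share was 39.98%, with 85.3% of the reads. A deeper entry is more easily listed in every library. The entries were not matched for depth, so this difference cannot be read as a trait of the members.

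On CAB21 and PSAH the entries had the same low library. On CAB21, gma-MIR1527-p3_2ss2CT22TA had 36 reads in RW, 18 in DS and 56 in CK, and gma-MIR1527-p5_2ss1CT21TA had 24, 21 and 77. On PSAH, mdm-miR167h_R+1_1ss22AT had 45 reads in RW, 12 in DS and 61 in CK, and csi-miR167b-5p_L+2 had 22, 10 and 19. In each of these 4 entries DS had fewest reads. LHCB5 reads stood mostly under nta-miR482a_R-3_1ss19CT, with 31 in RW, 21 in DS and 36 in CK, and mes-MIR482b-p5_1ss13TC added 4, 3 and 3.

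On LHCB4.3 the entries went apart. Its reads under mtr-MIR2675-p5_1ss14TC numbered 5 in RW, 9 in DS and 21 in CK, a RW/CK ratio of 0.199 (0.0587 to 0.543). Under mtr-MIR156e-p3 they numbered 13 in RW, 7 in DS and 5 in CK, a RW/CK ratio of 2.18 (0.728 to 7.80). The intervals of these ratios did not overlap, and the order of the 3 libraries was opposite. When LHCB4.3 was judged by its deepest entry alone it fell in DS to 0.325 of CK (exact adjusted p = 0.023) and was lower in RW than in CK (exact adjusted p = 0.0058), so its call rests on which entries are summed.

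The shallow members were spread over several small RNAs. The AB80 transcript TRINITY_DN22280_c0_g1 had csi-miR167c-3p_L+2R-2 with 12 reads in RW, 1 in DS and 6 in CK, and 3 further small RNAs, among them mtr-MIR2630w-p3_2ss6GC17TC with 5 reads in RW, which were read in RW alone. PSAN had 3 reads in RW, 7 in DS and 3 in CK under PC-5p-9773_636, and 5, 2 and 4 under aqc-MIR166d-p3_2ss11AT19GT. On psaA, mtr-MIR2673b-p5_1ss13AT had 3 reads in RW, 6 in DS and 14 in CK. Entries of CAP10A had at most 8 reads in a library. At these depths no order of the small RNAs within a transcript can be read.

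**Figure D4:**
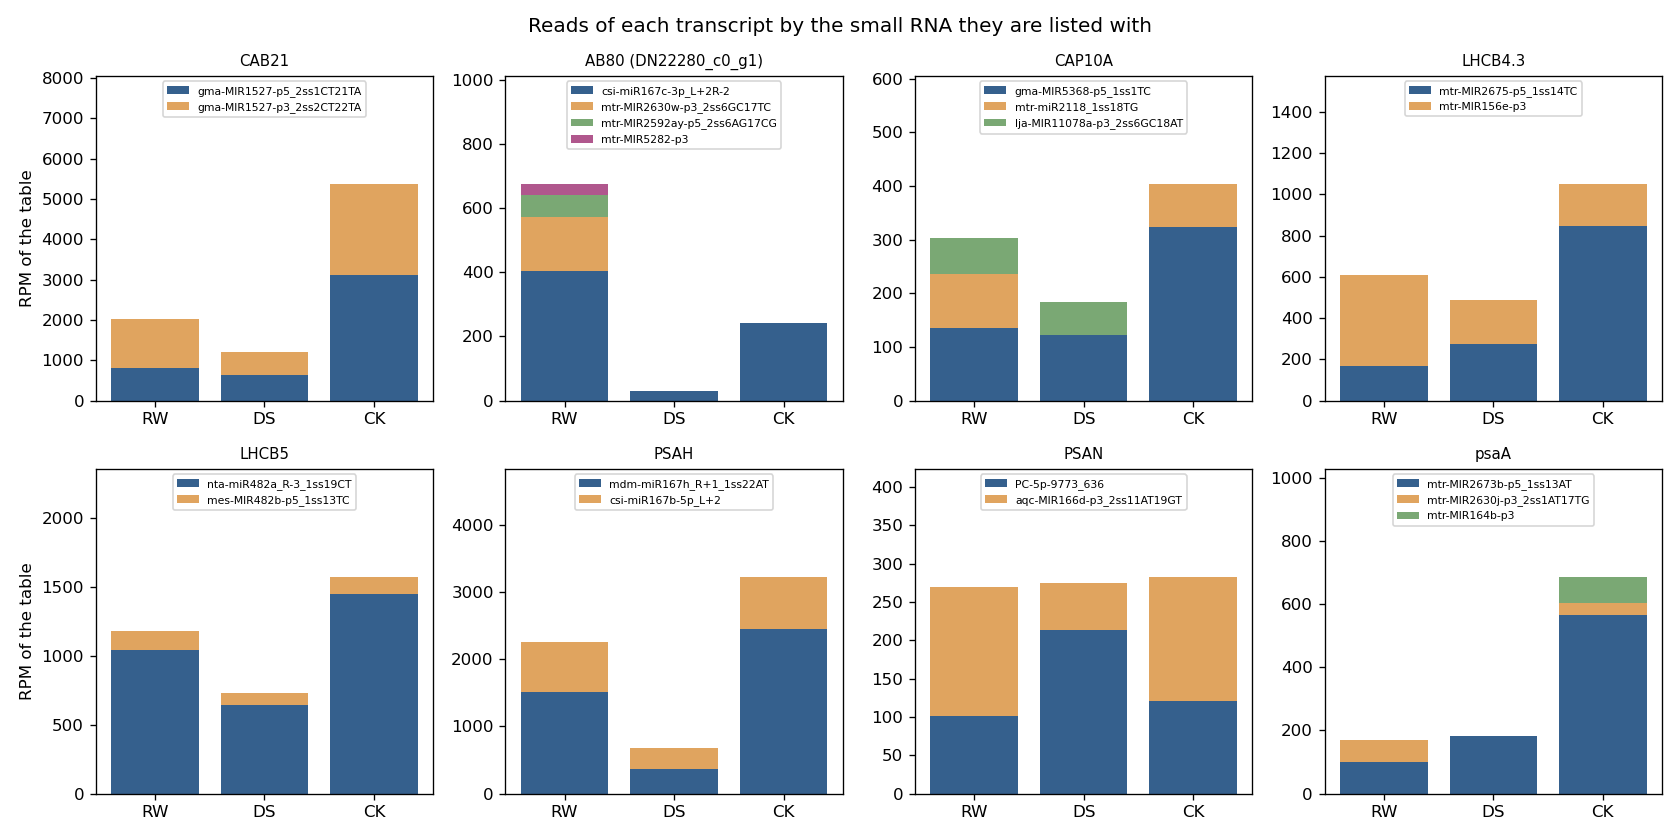
RPM of the deposited table (vertical axis, starting at 0, with its own scale in each panel) in RW, DS and CK of the 8 transcripts listed with more than 1 small RNA, with each bar divided by small RNA. Both colours of CAB21 and PSAH are shortest in DS, whereas in LHCB4.3 the part of the bar under mtr-MIR156e-p3 is longest in RW.

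For 4 of the 5 small RNAs with the most member reads, the member lay apart from the sum of other transcripts in DS/CK or RW/DS. For PC-3p-58648_87 this rested on a single other transcript, TRINITY_DN18905_c0_g3. The small RNA mdm-miR167h_R+1_1ss22AT had a DS/CK ratio of 0.149 (0.0730 to 0.280) on PSAH, against 0.810 (0.472 to 1.39) on 16 other transcripts, where it had 21 reads in RW, 31 in DS and 29 in CK. For gma-MIR1527-p3_2ss2CT22TA the DS/CK ratio was 0.244 (0.135 to 0.421) on CAB21, against 1.61 (0.659 to 4.31) on 10 other transcripts. In both cases the intervals of the member and of the other transcripts did not overlap. The RW/DS ratio of mtr-MIR5282-p3 was 4.35 (2.43 to 8.25) on the AB80 pair, against 1.11 (0.883 to 1.40) on 64 other transcripts, where it had 153 reads in RW, 152 in DS and 118 in CK. In PC-3p-58648_87 the DS/CK ratio was 0.455 (0.251 to 0.803) on LHCB4.1 and 0.483 (0.408 to 0.571) on 35 other transcripts. Its RW/DS ratio was 2.05 (1.18 to 3.67) on LHCB4.1, against 0.529 (0.418 to 0.666) on the others, and RW/CK was 0.933 (0.576 to 1.52), against 0.255 (0.204 to 0.317), without overlap of the intervals in either. Most reads of these others lay on TRINITY_DN18905_c0_g3, with 54 reads in RW, 173 in DS and 324 in CK, and without it the others had a DS/CK ratio of 1.12 (0.736 to 1.71), a RW/DS ratio of 1.07 (0.728 to 1.56) and a RW/CK ratio of 1.19 (0.782 to 1.83), each overlapping the interval on LHCB4.1. The remaining small RNA among the 5 deepest, gma-MIR1527-p5_2ss1CT21TA, had only 7 reads on other transcripts.

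Other genes of the pathway were taken from lists matched on symbols and annotation words, with the members left out. The other light reaction genes comprised 48 transcripts with 624 reads in RW, 708 in DS and 606 in CK. In DS vs CK 17 of them were tested, 1 was higher and 2 were lower. The median log2 ratio was -1.09 for the members, as given above, 0.44 for this list and 0.09 for all transcripts tested. In RW vs DS 3 of 18 were higher and 2 were lower (median -0.18), and in RW vs CK 2 of 13 were higher and 1 was lower (median 0.26). The low DS reads of the members were thus not seen in the median of the tested transcripts of this list. Its own antenna proteins and photosystem subunits held at most 9 reads each over the libraries (CAB13). They were too shallow for a test, so the medians of the list do not cover the genes most like the members.

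The transcripts of that list that passed are given here. Over all transcripts tested, the share that passed in either direction was 20.2% in DS vs CK, 18.4% in RW vs DS and 13.3% in RW vs CK. A difference between the list and this share was not tested. A transcript of PETH (TRINITY_DN22875_c1_g2), the leaf ferredoxin-NADP reductase at the end of the electron chain, had 105 reads in RW, 64 in DS and 89 in CK. It shared the order of the member sums. This transcript fell in DS to 0.545 of CK (0.389 to 0.760, exact adjusted p = 0.0022) and rose in RW to 1.81 times DS (1.32 to 2.51, exact adjusted p = 0.0019). Another PETH transcript, TRINITY_DN22875_c1_g1, named after its values were seen, had 71 reads in RW, 83 in DS and 48 in CK. It did not share that order and passed in no comparison, at 1.31 (0.907 to 1.91) in DS/CK and 0.945 (0.679 to 1.31) in RW/DS. petC, the Rieske protein of the cytochrome b6-f complex, had 95 reads in RW, 59 in DS and 31 in CK, and ndhU, a subunit of the chloroplast NADH dehydrogenase-like complex, had 76, 46 and 32. Both were highest in RW and rose there against each of the others, petC to 1.78 times DS and 2.57 times CK (exact adjusted p = 0.0051 and 6.2e-05) and ndhU to 1.83 times DS and 1.99 times CK (exact adjusted p = 0.011 and 0.013). A transcript annotated as an early light-inducible protein, a relative of the antenna proteins thought to protect against excess light, had 4 reads in RW, 22 in DS and 1 in CK. It ran opposite to the member sums, rising in DS to 16.7 times CK (2.69 to 688, exact adjusted p = 0.00075) and falling in RW to 0.201 of DS (0.0503 to 0.591, exact adjusted p = 0.0099). Another early light-induced protein transcript, TRINITY_DN14766_c1_g1, named after its values were seen, was too shallow for a test, with 3 reads in RW, 0 in DS and 5 in CK. The transcript with the symbol ycf68-1, annotated as chloroplast ATP synthase subunit beta from *Artemisia annua*, had 47 reads in RW, 136 in DS and 231 in CK and was lower in all 3 comparisons, with a DS/CK ratio of 0.446, a RW/DS ratio of 0.382 and a RW/CK ratio of 0.170. Its symbol and its annotation name different genes.

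Chlorophyll metabolism comprised 26 transcripts with 169 reads in RW, 146 in DS and 127 in CK. Of 7 tested in DS vs CK and 8 in each of the others, none passed, with median log2 ratios of -0.55 in DS vs CK, 0.20 in RW vs DS and 0.09 in RW vs CK. The Calvin cycle, which fixes carbon with the products of the light reactions, comprised 14 transcripts with 1001 reads in RW, 2000 in DS and 837 in CK. In DS vs CK 2 of 8 were higher, in RW vs DS 3 of 10 were higher and 2 were lower, and in RW vs CK 1 of 10 was higher. Over all transcripts tested, 11.0% were higher in DS vs CK and 7.05% were higher in RW vs CK. In RW vs DS 9.95% were higher and 8.42% were lower. A difference between the cycle and these shares was not tested. The median log2 ratios of the cycle were 0.03, 0.21 and 0.05 in that order, against 0.09, 0.07 and 0.11 for all transcripts tested, and most of its DS reads lay on the transcript described next.

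The deepest Calvin cycle transcript was RCA2 (TRINITY_DN25057_c1_g1), a Rubisco activase, with 726 reads in RW, 1706 in DS and 649 in CK. This RCA2 transcript ran opposite to the member sums, at 1.99 times CK in DS (1.82 to 2.18, exact adjusted p = 2.5e-52) and 0.470 of DS in RW (0.430 to 0.513, exact adjusted p = 4.9e-68). A shallower RCA2 transcript, TRINITY_DN13938_c0_g1, named after its values were seen, had 16 reads in RW, 7 in DS and 12 in CK, and did not pass at 0.442 (0.147 to 1.22) in DS/CK and 2.53 (0.983 to 7.26) in RW/DS. The alpha subunit of the Rubisco chaperonin, with 125 reads in RW, 202 in DS and 111 in CK, took the same direction, with 1.38 in DS/CK and 0.684 in RW/DS. The small subunit RBCS-3C had 36 reads in RW, 0 in DS and 4 in CK. Like AB80 it was high in RW, at least 13.3-fold higher than DS when DS is set to the floor of 3 reads (exact adjusted p = 1.2e-10), and 7.53 times CK (2.70 to 29.1, exact adjusted p = 6.3e-05). Sedoheptulose-1,7-bisphosphatase, with 21 reads in RW, 3 in DS and 7 in CK, and transketolase, with 14, 2 and 2, each rose in RW to 7.73 times DS (exact adjusted p = 0.0014 and 0.013).

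The scaling bears on the RW/CK values. The ratios above rest on the total of the deposited table, and with the study's totals of mapped reads as scaling the median log2 ratio of all transcripts tested was 0.62 in DS vs CK and 0.73 in RW vs CK, against 0.09 and 0.11 with table totals. The antenna sum then had a DS/CK ratio of 0.488 (0.391 to 0.606) and a RW/CK ratio of 1.12 (0.938 to 1.34), and the photosystem sum had 0.507 (0.359 to 0.708) and 1.02 (0.766 to 1.35). The lower sums in DS thus kept their direction, whereas the direction of RW against CK depended on the scaling. With mapped reads 232 of the 286 calls in DS vs CK were higher (81.1%, against 54.5% with table totals) and 204 of the 226 calls in RW vs CK were higher (90.3%, against 52.9%). CAB21 and PSAH remained lower in DS than in CK, whereas LHCB4.1, LHCB5 and psaA no longer passed. Both AB80 transcripts then passed in RW vs CK, at 2.87 times CK (exact adjusted p = 7.8e-05) for TRINITY_DN19797_c1_g4 and 4.296 times CK (exact adjusted p = 0.0077) for TRINITY_DN22280_c0_g1. They were 2 of 11 members, beside 204 higher of all 893 transcripts tested. These AB80 calls are therefore not set apart from the shift that this scaling gave to all transcripts. When the spread among all other transcripts tested stood in for replicate error, in a beta-binomial test, no antenna or photosystem transcript passed in any comparison. Over all transcripts this test passed 0 of 928 in DS vs CK, 0 of 1045 in RW vs DS and 1 of 893 in RW vs CK. Its spread also holds any true differences between the libraries, so it cannot decide whether the members differed.

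**Figure D5:**
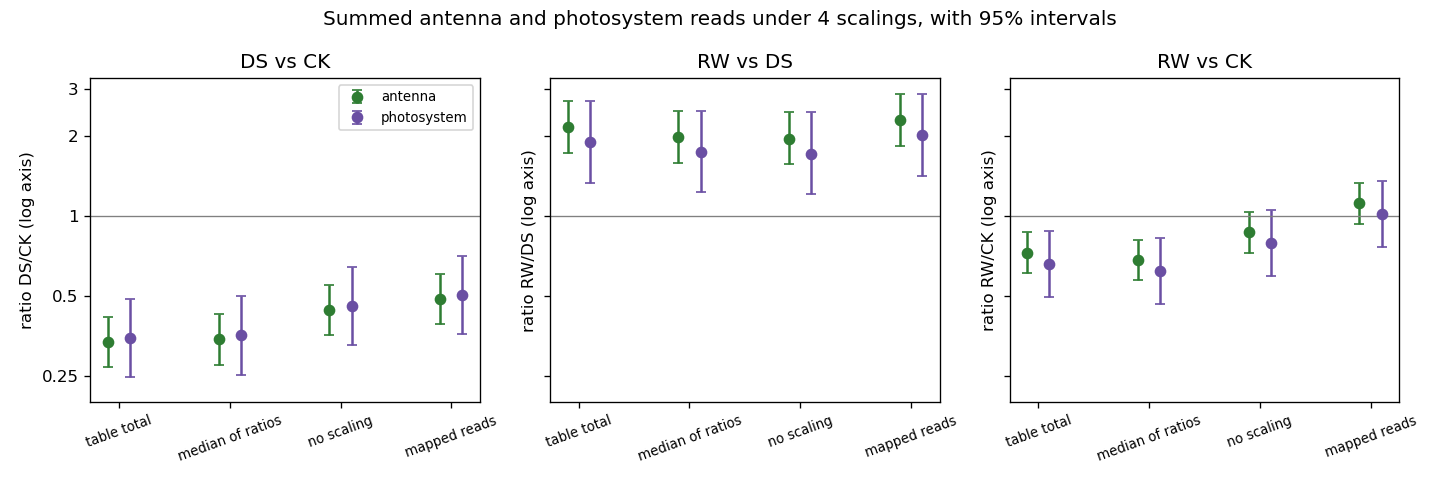
Ratio (log axis) of the summed antenna (green) and photosystem (violet) reads in DS/CK, RW/DS and RW/CK under 4 scalings of the libraries (table total, median of ratios, no scaling and mapped reads), with bars for the exact 95% interval. In DS/CK every point lies below 1 and in RW/DS every point lies above 1, whereas in RW/CK the points for mapped reads lie above 1, at 1.12 and 1.02.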

How the data were processed

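One deposited table of 3 degradome libraries (RW, DS and CK) was used. Per the labels and the study's methods, 5′ ends of polyadenylated RNA were ligated and sequenced as single-end reads of 50 bases (HiSeq 2500), and cleavage sites were called with ACGT101-DEG, mainly CleaveLand 4, against unigenes assembled with Trinity 2.4.0. Normalized counts were deposited by the authors as RPM, scaled to the sum of the table. Dividing by the RPM of 1 read gave whole reads for 100% of values (tolerance 0.01 read), so counts were tested. Reads were summed per transcript.

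Each comparison used a two-sided exact conditional binomial test with Benjamini-Hochberg adjustment, and ratios have exact conditional 95% intervals (Python 3.11.15, SciPy 1.17.1, pandas 2.3.3, NumPy 2.4.6, Matplotlib 3.10.9). Log2 ratios used a pseudocount of 1 read. The script was tested on simulated data. Every member was named, and of the pathway lists each transcript that passed in at least 1 comparison, at most 15. Members and lists were chosen with earlier results of these data known, and 12 accidental list matches were dropped once their values were known. The alternatives tried were other scalings (none, mapped reads from the study's supplement, median of ratios), other read minimums, the deepest entry alone, sums without their deepest transcript and a beta-binomial test. No sequence of a small RNA or transcript was used.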

Additional observations from a re-analysis of the deposited data

How the results depend on the processing

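With 1 library per condition no replicate could be left out. No paired analysis was possible because each condition had 1 library. Of the 114 alternative values of sums and counts, 81 kept their side of the threshold or moved little, and of the 214 of single transcripts 165 did.

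In DS vs CK, the 5 member transcripts that were lower became 2 with no scaling, 2 with mapped reads and 0 in the beta-binomial test, and the 5 transcripts of the pathway lists became 9, 11 and 0. All 187 calls became 286 with mapped reads and 0 in the beta-binomial test, where 0 members had an unadjusted p under 0.05 and whose spread also holds any true differences between the libraries. The antenna ratio was 0.444 with no scaling, 0.488 with mapped reads and 0.443 without CAB21, and the photosystem ratio was 0.507 with mapped reads and 0.671 without PSAH. PSAN turned to 1.29 with no scaling, 1.41 with mapped reads and 1.77 by its deepest entry.

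In RW vs DS, the beta-binomial test left 0 of 4 member calls, 0 of 192 calls and 0 of 10 list calls, with 1 member at an unadjusted p under 0.05. The photosystem ratio reversed to 0.855 without PSAH. PSAN turned to 1.04 with mapped reads and LHCB4.3 to 0.614 by its deepest entry. LHCB4.1 no longer passed with no scaling (exact adjusted p = 0.11), median of ratios (0.085) or at least 5 reads (0.077).

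In RW vs CK, members higher numbered 1 with no scaling, 2 with mapped reads, 1 with at least 20 reads and 1 by the deepest entry, and members lower 1 with no scaling, 1 with mapped reads, 1 with at least 5 reads and 0 in the beta-binomial test. All 119 calls became 226 with mapped reads and 1 in the beta-binomial test, and the 4 list calls became 12 and 0. The antenna ratio was 0.869 with no scaling, 1.12 with mapped reads and 1.06 without CAB21, and the photosystem ratio was 1.02 with mapped reads. LHCB4.1 turned to 1.11 with no scaling and 1.44 with mapped reads, and PSAN to 1.14 and 1.47. With mapped reads PSAH was at 1.08, PSBW at 1.29, CAP10A at 1.16 and LHCB5 at 1.16. The cause of these changes other than the scaling itself was not tested.

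With no scaling 76.8% of calls in DS vs CK and 76.7% in RW vs CK were higher, and in RW vs DS the share was 44.1%, against 54.2% with table totals. Transcripts with fewer than 10 reads over both libraries were not tested.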
